A study of Homo sapiens with 4 samples.

Results

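Of the 60617 Ensembl gene rows in the deposited table, 10 were selected by symbol as feedback genes of transforming growth factor beta (TGF-beta) and bone morphogenetic protein (BMP) signalling. They were the inhibitors of DNA binding ID1, ID2, ID3 and ID4, the inhibitory SMAD genes SMAD6 and SMAD7, the co-repressor genes SKI, SKIL and TGIF1, and the pseudoreceptor gene BAMBI, and all 10 were found, each on 1 row. RNA came from 2 human prostate cancer cell lines, each with and without morusin, a prenylated flavone of mulberry root bark, for 6 h. The groups were 22Rv1 with 75 µM morusin, untreated 22Rv1, PC3 with 46 µM morusin and untreated PC3, with 1 library in each. 22Rv1 is a xenograft-derived carcinoma line, and PC3 comes from a bone metastasis. Each line had its own medium (RPMI for 22Rv1, F12 for PC3) and its own dose, so dose and medium cannot be told apart from the line. The labels do not say what the untreated cells received in place of morusin.

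TGF-beta and BMP ligands bind receptor kinases at the cell surface, which phosphorylate SMAD proteins, and these enter the nucleus with SMAD4 to switch genes on or off. Several of the genes they switch on act back on the pathway. SMAD6 and SMAD7 block the receptors and the signalling SMADs, SKI and SKIL (also called SnoN) recruit repressors to SMAD complexes, TGIF1 is a homeodomain protein that does likewise, and BAMBI resembles a receptor but lacks the kinase. The ID genes are classic BMP targets, and their proteins bind the basic helix-loop-helix E proteins and keep them off DNA. In prostate epithelium TGF-beta restrains growth, and many carcinoma cells escape that restraint.

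The upstream windows of the 3 most abundant ID genes and of SMAD6 are shown because ID1 parted from ID2 and ID3 in both treated libraries, and because SMAD6 carries the palindromic SMAD box. The sequences are from RefSeq on GRCh38.p14, run 5′ to 3′ on the gene's own strand, and cover the 250 bases before the annotated start site. Capitals mark any of the motifs searched, which were GTCTAGAC (palindromic SMAD box), GGCGCC (GC-rich SMAD box), CAGAC or its reverse GTCTG (short SMAD box) and the E-boxes CACGTG and CAGCTG. The ID1 window is chr20:31605039-31605288 on the plus strand, ID2 is chr2:8681806-8682055 on the plus strand, ID3 is chr1:23559502-23559751 on the minus strand and SMAD6 is chr15:66701986-66702235 on the plus strand.
ID1: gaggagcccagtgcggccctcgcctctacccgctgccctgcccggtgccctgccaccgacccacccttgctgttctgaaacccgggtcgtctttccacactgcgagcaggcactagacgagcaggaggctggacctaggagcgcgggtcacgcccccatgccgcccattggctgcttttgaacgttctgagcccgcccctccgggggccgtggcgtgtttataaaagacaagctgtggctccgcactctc
ID2: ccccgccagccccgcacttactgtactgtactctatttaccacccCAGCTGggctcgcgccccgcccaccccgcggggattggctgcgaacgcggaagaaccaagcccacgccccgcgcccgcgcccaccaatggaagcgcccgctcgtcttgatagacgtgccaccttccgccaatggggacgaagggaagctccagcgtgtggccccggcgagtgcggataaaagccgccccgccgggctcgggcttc
ID3: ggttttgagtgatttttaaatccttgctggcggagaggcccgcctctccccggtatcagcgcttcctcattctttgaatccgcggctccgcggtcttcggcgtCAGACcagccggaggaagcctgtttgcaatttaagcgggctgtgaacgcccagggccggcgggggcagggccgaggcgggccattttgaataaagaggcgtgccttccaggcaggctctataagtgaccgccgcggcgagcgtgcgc
SMAD6: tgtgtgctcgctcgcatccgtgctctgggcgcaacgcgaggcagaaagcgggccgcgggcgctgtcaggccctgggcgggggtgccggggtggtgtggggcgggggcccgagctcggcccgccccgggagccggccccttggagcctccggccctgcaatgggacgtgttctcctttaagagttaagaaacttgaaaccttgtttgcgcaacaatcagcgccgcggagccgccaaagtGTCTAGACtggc

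The SMAD6 window held GTCTAGAC with its first base at position -12 from the start site, and ID3 held CAGAC at position -147. ID2 held the E-box CAGCTG at position -205, and the ID1 window held none of the letters searched. BMP response elements of ID1 are known from farther upstream than this window. Windows of 300 bases, the last 50 of them after the start, were listed for 9 of the 10 members, and TGIF1 and SMAD7 had several, giving 17 in all. GTCTAGAC was in 1 of these 17 windows and in 0.202% of 35116 windows of all genes. GGCGCC was in 2 of the 17 (SKIL and BAMBI), against 19.2% of all windows. CAGAC or GTCTG was in 11 of the 17, from 6 members (ID3, ID4, SMAD7, SKIL, TGIF1 and BAMBI), and in 45.3% of all windows. Windows of 1 gene can overlap, as some of TGIF1 do. CAGCTG was in 3 of the 17 (ID2, ID4 and TGIF1) and in 17.9% of all, while CACGTG was in 0 of the 17 and in 7.26% of all. A match is only a run of letters, and binding was not measured.

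Values are FPKM, fragment counts scaled to transcript length and library size, which allow levels to be compared between genes. Depth, inferred from the steps between low values, was 19.1 to 40.5 M read pairs per library. The FPKM of a library summed to between 335458 and 408628. As checks on the labels, the prostate kallikrein gene KLK4 was at 428.7 and 288 FPKM in treated and untreated 22Rv1, against 0 and 0.0173 FPKM in treated and untreated PC3, and the epithelial keratin gene KRT8 was at 106.8 to 137.2 FPKM in all 4. Other genes of the same marker lists differed. The epithelial gene CDH1 was at 64.5 and 86.3 FPKM in treated and untreated 22Rv1, but at 0.144 and 0.19 FPKM in PC3. The prostate gene HOXB13 was higher in treated and untreated PC3 (100.1 and 175.4 FPKM) than in 22Rv1 (67.0 and 86.5 FPKM). Of 10 markers of leukocytes, fibroblasts and endothelium, 7 were under 1 FPKM in every library and all 10 summed to 2.53 to 4.27 FPKM. With 1 library per group a difference within a line has no replicate check. Changes are therefore given as log2 of the ratio of (FPKM + 1), a scale on which low genes look less changed than they are, with 2-fold as the size called. For the ratio without the added 1, a 95% counting interval was derived from the estimated pairs, and it covers counting error only. The same depths would be 2 times larger if the smaller of the steps seen were a whole pair, and the intervals would then be narrower.

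**Figure D1:**
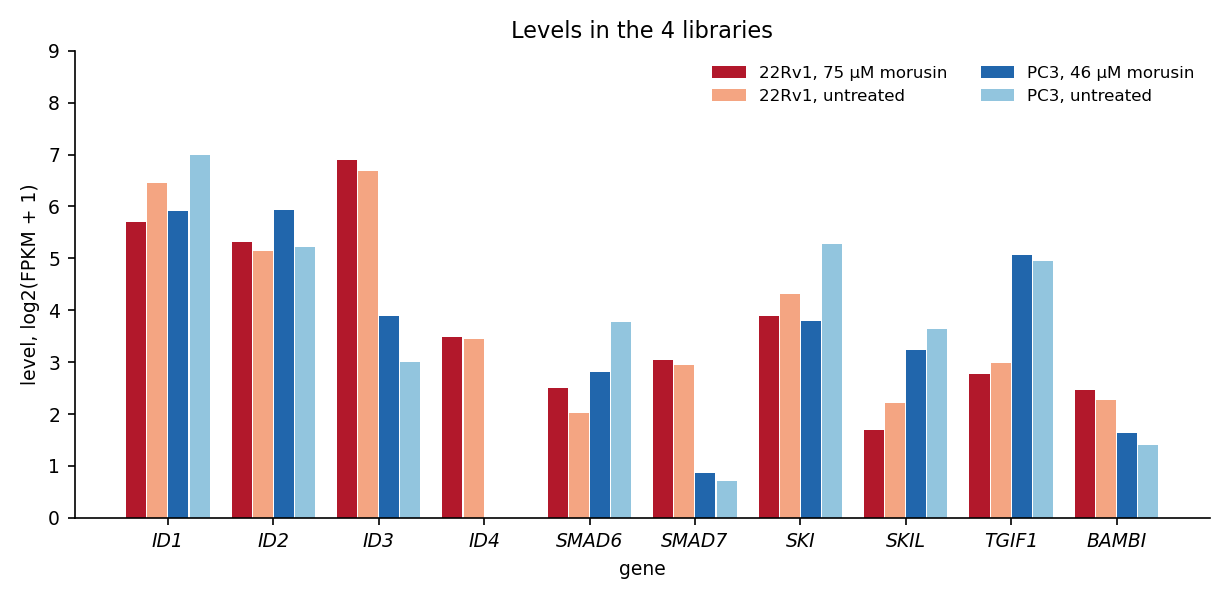
Level of each of the 10 genes in the 4 libraries, as log2(FPKM + 1); each bar is 1 library, with red shades for 22Rv1, blue shades for PC3 and the darker shade for morusin. ID1, ID2 and ID3 stand highest in 22Rv1, TGIF1 and SKI are taller in untreated PC3 than in untreated 22Rv1, and ID4 has no bar in PC3, where it was listed at 0.

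ID3, ID1 and ID2 were the most abundant members in both 22Rv1 libraries, ID4 stood below SKI there, and ID1 was the most abundant member in untreated PC3. ID1 (ENSG00000125968, chromosome 20, 31605283 to 31606515 on GRCh38) encodes an inhibitor of differentiation factors and is a much-used readout of BMP signalling. It was at 51.3 FPKM in treated 22Rv1, against 86.5 FPKM in untreated 22Rv1. In PC3 it was at 59.3 FPKM with morusin, against 126.7 FPKM without. ID1 was thus lower in both treated libraries, by a log2 change of -0.74 in 22Rv1 and -1.08 in PC3, where it was 2.12-fold lower on the FPKM + 1 scale. The counting interval of the log2 ratio was -0.86 to -0.65 in 22Rv1 and -1.17 to -1.02 in PC3. In 22Rv1, 567 of 13361 genes had a lower change than ID1, and in PC3, 252 of 12907.

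ID2 and ID3 did not follow ID1. ID2 (ENSG00000115738, chromosome 2, 8678845 to 8684453), an inhibitor of E proteins that also binds the retinoblastoma protein, was at 38.9 FPKM in treated 22Rv1 and 34.4 FPKM in untreated 22Rv1. It was at 59.8 FPKM in treated PC3 and 36.3 FPKM in untreated PC3, a log2 change of 0.70. ID3 (ENSG00000117318, chromosome 1, 23557918 to 23559794), a further E protein inhibitor, was at 118.7 FPKM in treated 22Rv1 and 101.3 FPKM in untreated 22Rv1. It was at 13.7 FPKM in treated PC3 and 7.06 FPKM in untreated PC3, a log2 change of 0.87 with a counting interval of 0.76 to 1.16 for the ratio without the added 1. The change was under 2-fold for ID2 and ID3 in either line, and in PC3 only 297 and 204 genes had a higher change than ID2 and ID3. In 22Rv1 their log2 changes were 0.17 and 0.23 as deposited, and -0.02 and 0.03 after the libraries were rescaled to the same sum, so ID2 turned to below 0 there. ID4 (ENSG00000172201, chromosome 6, 19837386 to 19840684), which can act on the other ID proteins, was at 10.3 FPKM in treated 22Rv1 and 9.85 FPKM in untreated 22Rv1, and it was listed at 0 in both PC3 libraries. Its log2 change in 22Rv1 was 0.05 as deposited and -0.13 after rescaling, and its counting interval of -0.12 to 0.24 spanned 0.

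Ratios between members of a library do not depend on how the library was scaled, but they can carry a trend on transcript length where the members differ in length. The ratio of ID1 to ID3 was 0.432 in treated 22Rv1 and 0.854 in untreated 22Rv1, a 1.98-fold difference. In PC3 the ID1 to ID3 ratio was 4.31 with morusin and 17.9 without, a 4.16-fold difference. The counting interval for the log2 of this difference was -1.11 to -0.85 in 22Rv1 and -2.27 to -1.85 in PC3. The ratio of ID1 to ID2 was 1.32 in treated 22Rv1 and 2.51 in untreated 22Rv1. For PC3 the ID1 to ID2 ratio was 0.991 with morusin and 3.49 without. ID1 was therefore lower relative to both ID2 and ID3 in either treated library, beyond counting error. Such a ratio shows unequal change and does not say which gene moved.

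The 4 ID genes together summed to 219.1 FPKM in treated 22Rv1 and 232.1 FPKM in untreated 22Rv1. In PC3 they summed to 132.8 FPKM with morusin and 170.1 FPKM without. ID1 made up 44.6% of the family in treated PC3 and 74.5% in untreated PC3, while ID2 made up 45.0% and 21.4%. In 22Rv1, ID1 made up 23.4% of the family with morusin and 37.3% without. ID3 made up 54.2% of it with morusin and 43.7% without. The leading ID gene was ID3 in both 22Rv1 libraries and ID1 in untreated PC3, and in treated PC3 ID2 and ID1 were level at 59.8 and 59.3 FPKM.

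**Figure D2:**
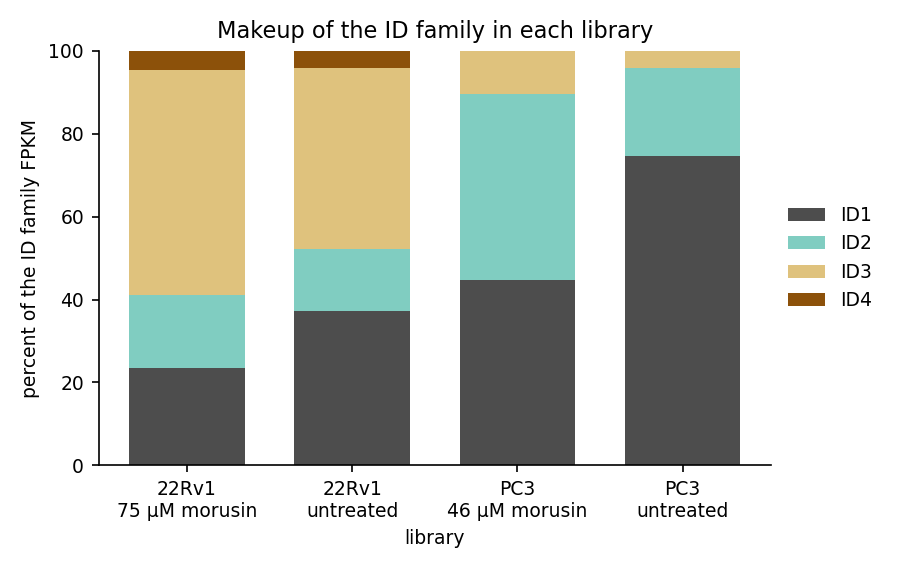
Share of each ID gene in the summed FPKM of the 4 ID genes, in percent, with 1 stacked bar per library. The ID1 share is 23.4% in treated 22Rv1 against 37.3% in untreated 22Rv1, and 44.6% in treated PC3 against 74.5% in untreated PC3.

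The inhibitory SMAD genes differed in level between the lines and moved unequally within them. SMAD6 (ENSG00000137834, chromosome 15, 66702228 to 66782848), which acts mainly against BMP receptors, was at 4.65 FPKM in treated 22Rv1 and 3.06 FPKM in untreated 22Rv1, a log2 change of 0.48. In PC3 it was at 5.97 FPKM with morusin and 12.7 FPKM without, a log2 change of -0.97. The treated library was thus the higher of the pair in 22Rv1 and the lower in PC3, with counting intervals of 0.37 to 0.83 and -1.22 to -0.96. After rescaling the SMAD6 change in PC3 was -1.07, past 2-fold, and with the length trend removed it was -0.80. SMAD7 (ENSG00000101665, chromosome 18, 48919853 to 48952052), which acts against TGF-beta and BMP receptors alike, was at 7.23 FPKM in treated 22Rv1 and 6.65 FPKM in untreated 22Rv1. In PC3 it was at 0.83 FPKM with morusin and 0.625 FPKM without, under the 1 FPKM needed for a change to be given. The counting interval for SMAD7 spanned 0 in both lines, at -0.17 to 0.41 in 22Rv1 and -0.31 to 1.12 in PC3. The ratio of SMAD6 to SMAD7 was 0.643 in treated 22Rv1 and 0.460 in untreated 22Rv1, and the counting interval of the log2 difference was 0.11 to 0.85. In PC3 the ratio was 7.19 with morusin and 20.3 without, with an interval of -2.22 to -0.77, and it rests on about 30.2 and 32.3 estimated pairs of SMAD7. SMAD6 and SMAD7 differ in transcript length, so their ratio also carries the length trend. With that trend removed, the changes in 22Rv1 were 0.71 for SMAD6 and -0.13 for SMAD7.

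Among the co-repressors, SKI had the largest difference of any member in PC3. SKI (ENSG00000157933, chromosome 1, 2228695 to 2310119) was at 12.8 FPKM in treated PC3 and 37.99 FPKM in untreated PC3. On the FPKM + 1 scale SKI was 2.82-fold lower, a log2 change of -1.497. Its counting interval was -1.638 to -1.499 for the ratio without the added 1, and 64 of 12907 genes had a lower change. In 22Rv1 SKI was at 13.8 FPKM with morusin and 18.9 FPKM without, a log2 change of -0.43. The 2 untreated libraries were about 2-fold apart and the 2 treated ones at similar levels. SKIL (ENSG00000136603, chromosome 3, 170357678 to 170396835), the relative of SKI, was at 2.25 FPKM in treated 22Rv1 and 3.63 FPKM in untreated 22Rv1, and at 8.4 FPKM in treated PC3 and 11.4 FPKM in untreated PC3. Its log2 changes were -0.51 in 22Rv1 and -0.40 in PC3. The ratio of SKI to SKIL was 1.52 in treated PC3 and 3.32 in untreated PC3, and in 22Rv1 it was 6.15 with morusin and 5.22 without, where the counting interval of the log2 difference (-0.09 to 0.56) spanned 0. SKI and SKIL differ in median transcript length, at 5.61 and 2.91 kb, so this ratio also carries the length trend. With that trend removed, their changes in PC3 were -1.20 and -0.30.

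TGIF1 and BAMBI showed the smallest changes of the members measured in PC3. TGIF1 (ENSG00000177426, chromosome 18, 3411608 to 3459978) was at 5.87 FPKM in treated 22Rv1 and 6.95 FPKM in untreated 22Rv1, and at 32.7 FPKM in treated PC3 and 30.04 FPKM in untreated PC3. Its log2 changes were -0.21 and 0.12, and the counting interval spanned 0 in 22Rv1 (-0.52 to 0.03) but not in PC3 (0.02 to 0.22). BAMBI (ENSG00000095739, chromosome 10, 28677342 to 28682939) was at 4.49 FPKM in treated 22Rv1 and 3.84 FPKM in untreated 22Rv1. In PC3 it was at 2.12 FPKM with morusin and 1.65 FPKM without. Its counting interval was -0.09 to 0.54 in 22Rv1 and -0.005 to 0.73 in PC3. Both spanned 0, in PC3 only at the low end, which the larger depth named above could move past 0. No overlapping gene in the annotation exceeded 1 FPKM in any library. ID2 was the member with an exonic overlap, of 38 bases with the antisense gene ID2-AS1, which was at 0.417 to 0.871 FPKM.

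All 10 members passed the filter of 1 FPKM in 22Rv1 and 8 in PC3, where ID4 and SMAD7 did not. In 22Rv1, 0 members had a change of 2-fold or more upward and 0 downward, against 3.48% and 1.02% of all 13361 genes. The median log2 change of the members was 0.08, against -0.01 for all genes. There 4 members were below 0 as deposited and 7 after rescaling or with the length trend removed. Of all genes in 22Rv1, 50.6% were below 0 as deposited, 63.2% after rescaling and 50.9% with the length trend removed. SMAD7 was at 0.10, -0.07 and -0.13 under these 3 scalings. In PC3 the upward count was 0 and the downward count 2 (ID1 and SKI), against 1.24% and 2.64% of all 12907 genes. With SMAD6 the downward count was 3 after rescaling or with a pseudocount of 0.1. The median log2 change of the 8 members was -0.14, against -0.05 for all genes. The members thus split in PC3, with ID2, ID3, TGIF1 and BAMBI above 0 and ID1, SMAD6, SKI and SKIL below 0.

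**Figure D3:**
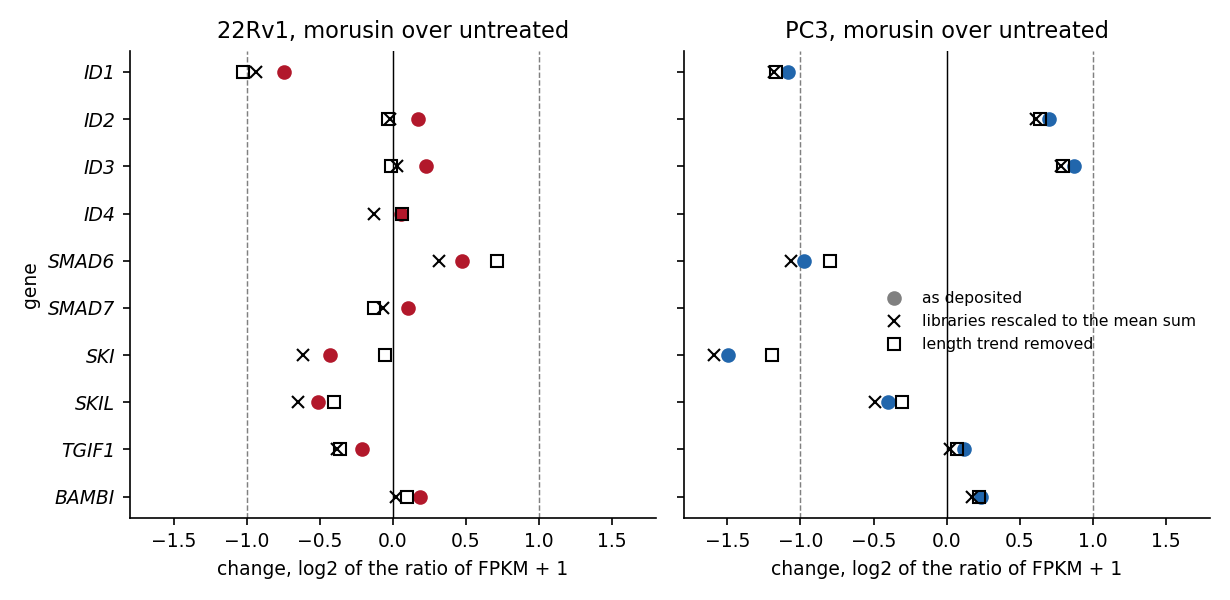
Change of each member in 22Rv1 (left) and PC3 (right), as log2 of the ratio of FPKM + 1, treated over untreated; filled circles are values as deposited, crosses are after each library was rescaled to the mean sum and squares after the trend on transcript length was removed. Dashed lines mark 2-fold; ID1 lies at -0.74 and -1.08 and SKI at -0.43 and -1.497, and ID4 and SMAD7 have no point in PC3.

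The change with treatment varied with annotated transcript length, and some members are long. In 22Rv1 the median log2 change was 0.34 over 3752 genes with transcripts under 1.5 kb and -0.31 over 4613 genes of 3 kb and over. In PC3 the same medians were 0.11 over 3276 genes and -0.23 over 4734 genes. ID1 has a median transcript length of 1.11 kb, ID2 of 1.36 kb, ID3 of 1.251 kb, SMAD6 of 3.83 kb and SKI of 5.61 kb. With the trend on length removed, the ID1 change was -1.02 in 22Rv1 and -1.17 in PC3, at least 2-fold lower in both. For SKI it was -0.05 in 22Rv1, against -0.43 as deposited, and -1.20 in PC3, still past 2-fold. ID2 and ID3 were at -0.04 and -0.01 in 22Rv1 after this removal, against 0.64 and 0.80 in PC3. SMAD6 was at 0.71 in 22Rv1 and -0.80 in PC3.

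**Figure D4:**
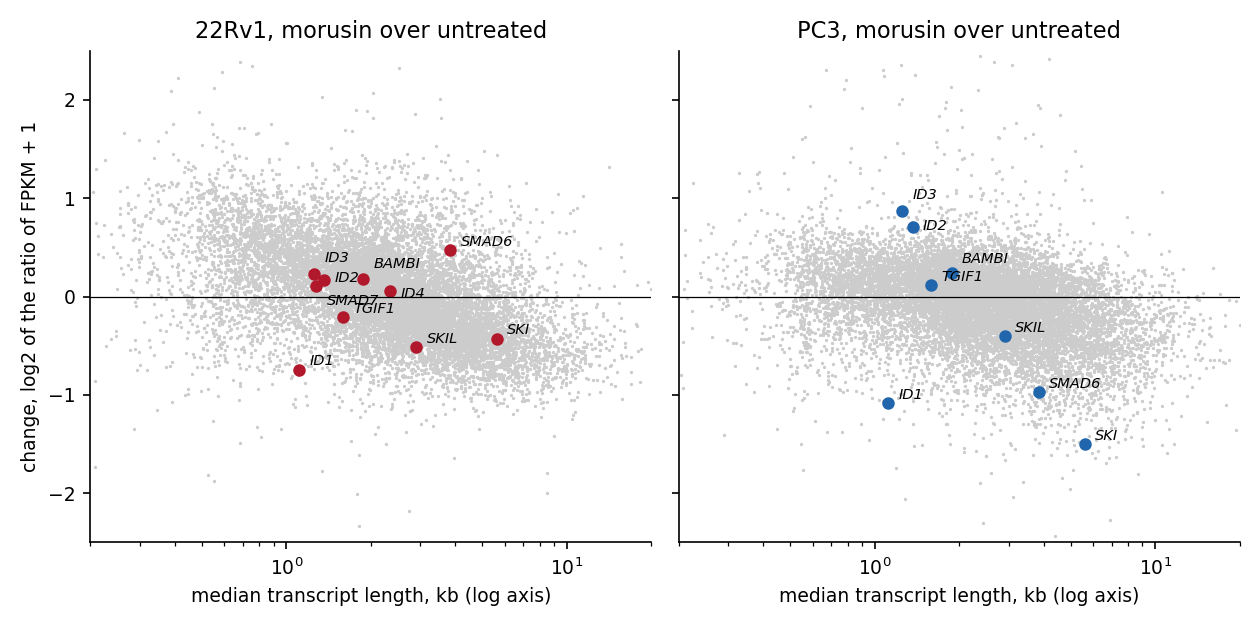
Change of each gene (log2 of the ratio of FPKM + 1, treated over untreated) against median transcript length in kb on a log axis, for 22Rv1 (left) and PC3 (right); grey dots are all genes past the filter, of which 256 of 13296 and 171 of 12858 lie outside the axes, and coloured dots are the members. ID1 lies at -0.74 in 22Rv1 and -1.08 in PC3 among the shorter genes, and SKI at -0.43 and -1.497 among the longer ones.

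The lines were compared without treatment to describe the starting levels of the members. On the FPKM + 1 scale ID3, ID4 and SMAD7 (3 members) exceeded 2-fold in favour of 22Rv1, and SMAD6, SKIL and TGIF1 (3 members) in favour of PC3, against 19.8% and 19.2% of 14363 genes. SKIL missed 2-fold with a pseudocount of 5 (-0.93), SKI passed it after rescaling (-1.05), after median centring (-1.07) and, barely, with a pseudocount of 0.1, and BAMBI passed it with a pseudocount of 0.1 (1.17). ID3 was at 101.3 FPKM in untreated 22Rv1 and 7.06 FPKM in untreated PC3, a log2 ratio of 3.67. SMAD7 was at 6.65 FPKM in untreated 22Rv1 and 0.625 FPKM in untreated PC3, a log2 ratio of 2.24. ID4 was at 9.85 FPKM in 22Rv1 and listed at 0 in PC3. TGIF1 had a log2 ratio of -1.97, SMAD6 of -1.75, SKIL of -1.42 and SKI of -0.97. ID2, at 34.4 FPKM in 22Rv1 and 36.3 FPKM in PC3, had a counting interval of -0.18 to 0.03 and was not separable at this depth. SMAD6 was lowest of the 10 in untreated 22Rv1, where it and SKIL (3.63 FPKM) and BAMBI (3.84 FPKM) were close together.

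A response common to the lines was tested by limma. The fit used log2(FPKM + 1), took the line as a block and adjusted by Benjamini-Hochberg over 13980 genes. Of all genes, 0.351% were called higher and 0.236% lower at an adjusted p of 0.05. All 10 members were tested and 0 were called, while 3 of them (ID1, ID3 and SKI) had an unadjusted p under 0.05, as did 2587 genes in all. ID1 had a shared log2 change of -0.91 ± 0.19 (SE) and an adjusted p of 0.094 by limma, lower in 2 of 2 lines. SKI had -0.96 ± 0.27 and an adjusted p of 0.141. ID3 had 0.55 ± 0.22 and an adjusted p of 0.227, and ID2 had 0.44 ± 0.20 and 0.291. For SMAD6, whose lines moved apart, the adjusted p was 0.715. The ID1 and SKI calls depended on scaling. After rescaling to equal sums both passed, with adjusted p of 7.59e-05 and 0.000432. In that setting 313 genes were called higher and 1278 lower of the 13980 tested, against 49 and 33 as deposited. Over the other settings the adjusted p of ID1 ranged up to 0.999997. The length trend was not removed in any limma setting. With it removed, the SKI change was -0.05 in 22Rv1 and -1.20 in PC3, and the ID1 change was -1.02 and -1.17. A response of SKI common to the lines therefore depended on the scaling. The test rests on 1 residual degree of freedom per gene and on the spread pooled over genes, which rescaling altered, with 66.4 prior degrees of freedom against 7.95 as deposited. That residual comes from the difference between the responses of the lines, whose dose and medium differed too. The SE and p given here therefore do not measure spread between replicates.

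The difference between the lines' responses could not be tested, and it is given by size. SMAD6 had the widest gap of the members, with a change of -0.97 in PC3 and 0.48 in 22Rv1, a difference of -1.45 in log2. SKI followed with -1.497 in PC3 and -0.43 in 22Rv1, a difference of -1.07. ID3 and ID2 were higher in PC3 by 0.64 and 0.53. ID1 (-0.34), TGIF1 (0.33), SKIL (0.11) and BAMBI (0.05) differed less. Of the 8 members measured in both lines, SMAD6 and TGIF1 had opposite signs as deposited, and the counting interval of TGIF1 in 22Rv1 spanned 0. After rescaling the count was 3, with ID2 added. With the length trend removed, ID2 (-0.04 in 22Rv1 and 0.64 in PC3) and ID3 (-0.01 and 0.80) also had opposite signs.

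Other genes of the pathway were described in 8 lists, by their counts and medians, beside the median of all genes (-0.01 in 22Rv1 and -0.05 in PC3) and the share of all genes below 0 (50.6% and 55.8%). These shares were 63.2% and 64.9% after rescaling, and 50.9% and 48.7% with the length trend removed. Of all genes, 3.48% in 22Rv1 and 1.24% in PC3 were at least 2-fold higher, and 1.02% and 2.64% were at least 2-fold lower. Receptors of the pathway were below 0 throughout, in 8 of 8 measured in 22Rv1 (median log2 change -0.50) and 9 of 9 in PC3 (median -0.30). TGFBR1, the type I receptor kinase for TGF-beta, was at 1.62 FPKM in treated PC3 and 4.80 FPKM in untreated PC3, the 1 receptor at least 2-fold lower. Its log2 change there was -1.14 as deposited and -0.83 with the length trend removed, which ends that call. In 22Rv1 TGFBR1 was at 1.37 FPKM with morusin and 3.08 FPKM without. These levels were more than 2-fold apart, but the log2 change with the added 1 was -0.79, and -0.40 with the length trend removed. BMPR2, the type II BMP receptor, was at 2.55 and 4.63 FPKM in treated and untreated 22Rv1 and at 6.31 and 9.12 FPKM in treated and untreated PC3. Its log2 changes of -0.67 in 22Rv1 and -0.47 in PC3 were -0.16 and -0.07 with the length trend removed. TGFBR2, the type II TGF-beta receptor, was at 23.0 FPKM in treated PC3 and 32.0 FPKM in untreated PC3, and at 0.394 and 0.283 FPKM in treated and untreated 22Rv1. ACVR1B, an activin receptor, was at 7.42 FPKM in treated 22Rv1 and 10.5 FPKM in untreated 22Rv1. With the length trend removed, 7 receptors stayed below 0 in either line, with medians of -0.22 in 22Rv1 and -0.10 in PC3.

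The signalling SMAD genes were all below 0 in 22Rv1, 6 of 6, with a median of -0.43, and 3 of 5 were in PC3 with a median of -0.10. SMAD5, which carries BMP signals, was at 5.27 FPKM in treated 22Rv1 and 11.4 FPKM in untreated 22Rv1, a log2 change of -0.99. That change was -0.55 with the length trend removed and -1.15, past 2-fold, after rescaling. In PC3 it was at 6.47 FPKM with morusin and 9.91 FPKM without, a log2 change of -0.55 that was -0.19 with the length trend removed. SMAD3, which carries TGF-beta signals, was at 37.3 FPKM in treated PC3 and 43.6 FPKM in untreated PC3, and at 2.63 and 3.90 FPKM in treated and untreated 22Rv1. After removal of the length trend 4 signalling SMAD genes in 22Rv1 (median -0.35) and 2 in PC3 were below 0, and the PC3 median turned to 0.12. Of the genes for SMAD turnover, 10 of 11 in 22Rv1 (median -0.36) and 7 of 11 in PC3 (median -0.22) were below 0, and 7 in either line after the removal. USP9X, a deubiquitinase of SMAD4, was at 6.62 FPKM in treated 22Rv1 and 12.3 FPKM in untreated 22Rv1, a log2 change of -0.81 that was -0.29 with the length trend removed. SMURF2, a ubiquitin ligase that SMAD7 brings to the receptors, was at 11.6 FPKM in treated PC3 and 20.8 FPKM in untreated PC3.

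Ligand genes were mixed, with 4 of 6 below 0 in 22Rv1 (median -0.14) and 3 of 8 in PC3 (median 0.06). GDF15, a stress-induced distant member of the ligand family, was the 1 ligand past 2-fold, at 281.2 FPKM in treated PC3 and 33.1 FPKM in untreated PC3, and in treated and untreated 22Rv1 it was at 10.4 and 6.55 FPKM. The GDF15 change in 22Rv1 was 0.59 as deposited and 0.33 with the length trend removed. TGFB1 itself was at 46.6 FPKM in treated PC3 and 34.4 FPKM in untreated PC3. INHBB, the activin B subunit, was at 84.2 FPKM in treated PC3 and 130.5 FPKM in untreated PC3. Secreted antagonists stayed under 2-fold, with 3 of 4 below 0 in 22Rv1 (median -0.20) and 5 of 6 in PC3 (median -0.28). TWSG1, a BMP-binding protein, was at 7.45 FPKM in treated 22Rv1 and 10.1 FPKM in untreated 22Rv1, and NBL1, a BMP antagonist, was at 15.5 FPKM in treated PC3 and 20.7 FPKM in untreated PC3.

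Other TGF-beta targets went both ways in PC3, where 2 of 16 exceeded 2-fold upward and 1 downward, and the median was 0.06. CCN2, a matrix protein that YAP also induces, was at 113.8 FPKM in treated PC3 and 25.8 FPKM in untreated PC3. SNAI2, a repressor of epithelial genes, was at 5.29 FPKM in treated PC3 and 1.31 FPKM in untreated PC3, while in treated and untreated 22Rv1 it was at 7.01 and 13.7 FPKM. The SNAI2 change in 22Rv1 was -0.88 as deposited and -1.05, past 2-fold, after rescaling. PMEPA1, which itself restrains TGF-beta signalling, was at 2.02 FPKM in treated PC3 and 5.86 FPKM in untreated PC3, a log2 change of -1.18. With the length trend removed it was -0.95, short of 2-fold. In 22Rv1, 5 of 10 of these targets were below 0, with a median of -0.04. After rescaling 8 of 10 were, when 63.2% of all genes were below 0. Among partners of SKI and TGIF1, 4 of 8 in 22Rv1 (7 after rescaling) and 6 of 8 in PC3 were below 0, with medians of -0.00068 and -0.36. NCOR1, a co-repressor that SKI recruits, was at 20.5 FPKM in treated 22Rv1 and 34.7 FPKM in untreated 22Rv1, a log2 change of -0.73 that was -0.25 with the length trend removed. TGIF2, the relative of TGIF1, was at 7.09 FPKM in treated PC3 and 10.4 FPKM in untreated PC3. The list of E proteins, which ID proteins bind, and related HES genes had 5 of 6 below 0 in 22Rv1 (median -0.42) and 4 of 6 in PC3 (median -0.12). With the length trend removed 4 of 6 were below 0 in 22Rv1 (median -0.31) and 3 of 6 in PC3, where the median turned to 0.07. HES1, a Notch target and repressor, was at 8.59 FPKM in treated 22Rv1 and 19.1 FPKM in untreated 22Rv1, the 1 gene of that list past 2-fold, and in PC3 it was at 17.4 FPKM with morusin and 9.82 FPKM without. The E protein gene TCF3 was at 47.8 and 54.6 FPKM in treated and untreated 22Rv1 and at 34.2 and 39.1 FPKM in treated and untreated PC3.

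**Figure D5:**
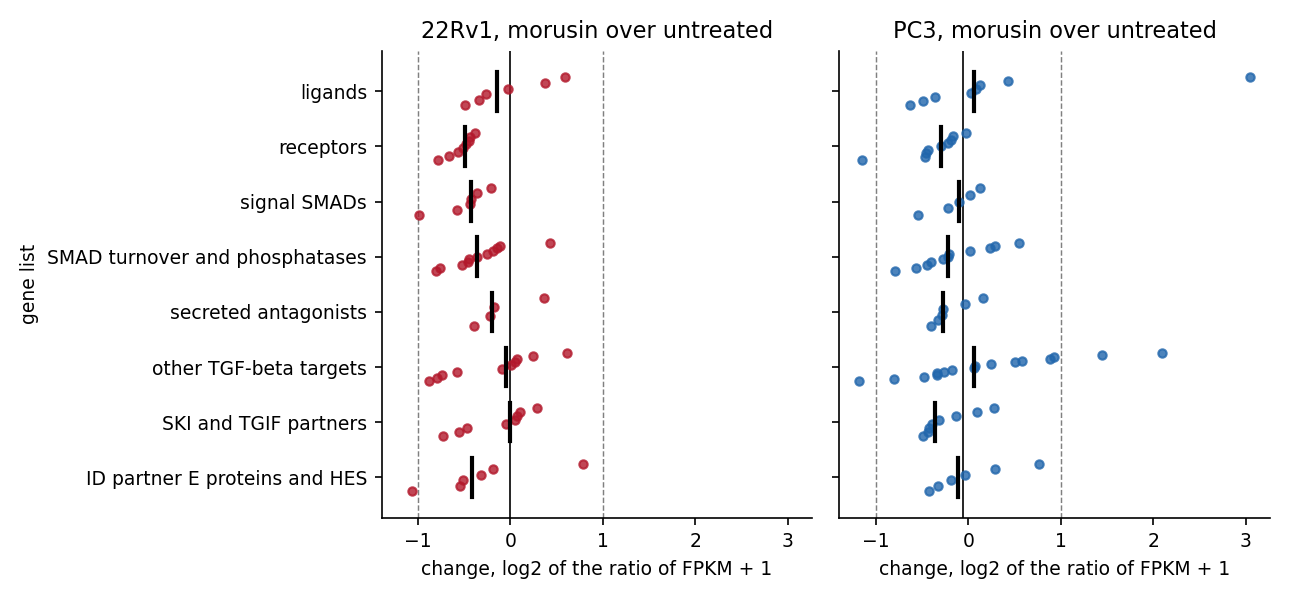
Change of each gene past the filter in the 8 pathway lists (rows), as log2 of the ratio of FPKM + 1, treated over untreated, for 22Rv1 (left) and PC3 (right); each dot is a gene, thick bars are list medians, the thin line is the median of all genes and dashed lines mark 2-fold. All 8 receptors in 22Rv1 and all 9 in PC3 lie below 0, with medians of -0.50 and -0.30.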

How the data were processed

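TruSeq RNA v2 libraries were sequenced in pairs of 150 bases, per the labels' protocols. The submitters' processing notes list Trimmomatic, HISAT2, StringTie and GRCh38, with tool versions, annotation release and strand setting not given in the sources used here. Values are FPKM, deposited by the authors per Ensembl gene, 1 column per library, so a rise of abundant RNAs lowers all other values. Depth was inferred from steps between low FPKM of single-exon genes of 600 to 5000 bases (tolerance 1.5%), and is rough.

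Symbols came from a gene name table (60261 of 60617 IDs were in it), and positions and lengths from GENCODE 29, which may differ from the authors' annotation. The members and lists were chosen with earlier results of these data known. Genes needed 1 FPKM or more in 1 library compared (2 of 4 for limma). Settings tried were a pseudocount of 0.1 or 5, no filter, rescaling to the mean library sum and median centring. A lowess trend on length was also removed, but not for limma. The limma fit was also run with no block and with no variance trend. Genes named are all members, list genes at 2-fold or otherwise the largest change at 5 FPKM or more, a few further list genes chosen after their values were seen (BMPR2, TGFBR2, SMAD3, TGFB1, INHBB, TCF3), and the 3 genes nearest ID1 and SKI. Libraries are paired by cell line, as labelled. The limma test was tested on simulated data of 14363 genes at a noise SD of 0.25, where calls were made for 100 of 100 genes raised and 50 of 50 lowered by 2 on the log2 scale, for 39 of 50 raised by 1, and for 14 unaltered genes. The simulation used the same effect in both lines and the same noise SD for all genes, with no length trend. In the data the responses differed between the lines, so these counts do not carry over to the reported test. Software was Python 3.11.15, R 4.3.3 and limma 3.58.1. 1 marker check is not reported here.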

Additional observations from a re-analysis of the deposited data

Results flagged for a closer look

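As deposited, some named genes moved in opposite directions in the lines, which was not tested, since each line has 1 library per group. The change in PC3 minus that in 22Rv1, in log2, was -1.45 for SMAD6, 0.33 for TGIF1, 1.83 for HES1, 0.83 for NCOR1 and 2.32 for SNAI2. The separate changes were 0.77 in PC3 and -1.07 in 22Rv1 for HES1, 0.09 and -0.73 for NCOR1, and 1.45 and -0.88 for SNAI2. The NCOR1 change in PC3 depended on the scaling and was 0.000621 after rescaling to equal sums and 0.48 with the length trend removed, while in 22Rv1 it was -0.92 and -0.25. TGIF1 in PC3 was at 0.12 as deposited and 0.02 after rescaling. Dose, medium and line cannot be told apart.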

How the results depend on the processing

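Removing the length trend put 1 member, ID1, past 2-fold lower in 22Rv1, against 0 as deposited. In PC3, 2 members were past 2-fold lower as deposited and 3 after rescaling. Of the lists, 8 other TGF-beta targets and 7 SKI and TGIF partners were below 0 in 22Rv1 after rescaling, against 5 and 4. Equal library sums put the all-gene median at -0.18 in 22Rv1 and -0.14 in PC3, with 63.2% and 64.9% of all genes below 0.

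Counts over all genes depended on the settings. In 22Rv1, 465 genes were 2-fold higher as deposited, 844 with a pseudocount of 0.1, 151 with 5, 255 after rescaling and 291 with the length trend removed. Lower genes were 136 as deposited, 376 with 0.1, 33 with 5 and 351 after rescaling. The share higher among them was 77.4% as deposited, 42.1% after rescaling and 61.4% with the length trend removed. In PC3, higher genes were 160 as deposited, 259 with 0.1 and 74 with 5, and lower genes were 341, 680 with 0.1, 85 with 5 and 215 with the length trend removed. The share higher was 31.9% as deposited and 46.5% with 5. Between untreated lines 2849 and 2751 genes were 2-fold higher in 22Rv1 and PC3, and 1322 and 1419 with a pseudocount of 5.

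In the shared limma test 49 genes were higher and 33 lower. These became 18 and 15 with a pseudocount of 5, 313 and 1278 after rescaling and 29 higher without a variance trend, while median centring left 20 lower. With no filter, or with no replicate block, 0 and 0 were called, with 2323 and 54 genes at an unadjusted p under 0.05. Of the members 0 were called, 2 after rescaling. The lines are the pairs, so the paired fit is the one reported. No replicate could be left out with 1 library per group. At the estimated depths the counting intervals spanned 0 for BAMBI and SMAD7 in both lines and for ID4 and TGIF1 in 22Rv1.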

Other observations

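The genes whose pattern over the 4 libraries lay nearest to ID1 and SKI were found by Euclidean distance between log2(FPKM + 1) values, each centred on its own mean, among 9061 genes averaging 5 FPKM or more. Nearest to ID1 were KIF1B, a kinesin motor (distance 0.0997), NUDT3, a hydrolase of inositol pyrophosphates (0.134), and ETNK1, an ethanolamine kinase (0.143). KIF1B was at 5.05 FPKM in treated 22Rv1 and 9.63 FPKM in untreated 22Rv1, and at 6.58 FPKM in treated PC3 and 13.8 FPKM in untreated PC3. Nearest to SKI were the divergent transcript BAIAP2-DT (0.120), NF2, which encodes the tumour suppressor merlin (0.176), and BAHD1, a chromatin protein (0.216). NF2 was at 11.9 FPKM in treated 22Rv1 and 18.9 FPKM in untreated 22Rv1, and at 10.7 FPKM in treated PC3 and 33.9 FPKM in untreated PC3. With 4 libraries such likeness is a description of these values.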
